A study of Mus musculus with 11 samples.

Results

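The 9 genes described here encode the calprotectin subunits and further granule, surface and nuclear proteins of neutrophils: S100a8, S100a9, Ngp, Camp, Ltf, Olfm4, Retnlg, Cd177 and Padi4. They were chosen by symbol, and all 9 were among the 29809 genes counted. The counts came from single-cell 3' RNA sequencing of mouse colonic mucosa in 11 libraries, with 1 library per group. Wild-type mice of about 2 months were either left uninjured or given 3% dextran sulfate sodium (DSS), a polysaccharide that injures the colonic epithelium, for 6 days. DSS mice were sampled early, on days 6, 7, 9, 11 and 12 counted from the start of exposure, and late, on days 16, 18, 19 and 23. The last library came from Il10-/- mice of about 10 months, which lack interleukin 10 throughout the body and had colitis without DSS. Age and genotype therefore cannot be told apart in that library. Libraries pooled 3 to 8 mice each by the labels, so the spread between mice is not seen, and every interval printed for a library covers counting error only. A batch label, C, covers days 7, 11 and 18, which were run from fresh cells of 3 mice each. The other 8 libraries, without a batch in the sample records, are batch A in the authors' cell table and came from frozen cells of 8 mice each.

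Neutrophils load their granules in sequence while they mature in the bone marrow: azurophil granules first, then the specific granules that hold lactoferrin and cathelicidin, then gelatinase granules and secretory vesicles. The mRNA of the earlier granule proteins is largely gone by the time a cell leaves the marrow. S100A8 and S100A9 pair to form calprotectin, an abundant cytosolic protein that withholds zinc and manganese from microbes and signals through innate receptors. Its level in stool is a clinical marker of intestinal inflammation.

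In the GENCODE vM21 annotation of mm10, S100a8 lies at chr3:90668978-90670035 on the plus strand and S100a9 at chr3:90692632-90695721 on the minus strand, with 22596 bases between them. Camp (chr9:109847379-109849617, minus strand), Ngp (chr9:110419747-110423012, plus strand) and Ltf (chr9:111019271-111042767, plus strand) lie within 1 stretch of chromosome 9, with 570129 bases between Camp and Ngp and 596258 between Ngp and Ltf. Cd177 is at chr7:24743983-24760311 on the minus strand, Padi4 at chr4:140745865-140774236 on the minus strand, Olfm4 at chr14:79984081-80023139 on the plus strand and Retnlg at chr16:48872621-48874496 on the plus strand. The calprotectin pair was found together in nearly every neutrophil and the 3 chromosome 9 genes in 223 of 12565, as described further on. The upstream sequences of both sets are shown for this reason. They are RefSeq promoter windows of GRCm38.p6 (mm10), trimmed to end before the first annotated transcript start: chr3:90668821-90668977 (plus strand), chr3:90695722-90695971 (minus), chr9:110419558-110419746 (plus), chr9:109849618-109849706 (minus) and chr9:111019042-111019270 (plus), each written 5' to 3'. Capitals mark the core TTGCNNAA, which C/EBP factors can bind, and the core GAGGAA, which PU.1 can bind, each on either strand.
S100a8: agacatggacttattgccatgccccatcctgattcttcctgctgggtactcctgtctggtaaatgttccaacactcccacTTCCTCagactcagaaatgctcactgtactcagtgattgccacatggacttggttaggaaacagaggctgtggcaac
S100a9: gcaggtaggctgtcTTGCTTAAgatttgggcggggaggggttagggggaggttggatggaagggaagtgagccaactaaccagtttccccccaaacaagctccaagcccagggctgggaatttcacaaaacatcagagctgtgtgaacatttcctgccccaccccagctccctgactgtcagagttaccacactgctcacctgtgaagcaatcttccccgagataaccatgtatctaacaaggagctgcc
Ngp: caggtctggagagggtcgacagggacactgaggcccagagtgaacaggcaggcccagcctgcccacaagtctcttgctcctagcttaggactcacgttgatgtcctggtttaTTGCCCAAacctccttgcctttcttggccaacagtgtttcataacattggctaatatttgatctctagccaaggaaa
Camp: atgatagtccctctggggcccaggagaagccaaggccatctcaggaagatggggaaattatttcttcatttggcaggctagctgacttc
Ltf: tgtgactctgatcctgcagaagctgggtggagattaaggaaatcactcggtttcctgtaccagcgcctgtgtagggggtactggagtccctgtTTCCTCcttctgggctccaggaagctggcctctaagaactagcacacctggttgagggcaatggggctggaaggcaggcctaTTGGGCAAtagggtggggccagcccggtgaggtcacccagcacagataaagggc
The C/EBP core lies in the windows of Ngp and Ltf and in that of S100a9, and no match to either core lies in the window of Camp. Over whole windows of 300 bases, 4 of the 9 genes held the C/EBP core (S100a9, Ngp, Ltf and Retnlg), against 10.8% of 32851 windows in the table. The PU.1 core lay in the windows of 4 of 9 (S100a8, Ltf, Olfm4 and Cd177), against 28.3% of all windows. A match is a description of the letters and not a measured site.

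The libraries used held 55603 cells, from 1820 in the uninjured library to 8953 on day 11, with 7922350 to 87012379 unique molecular identifier (UMI) counts each. The authors named 12565 cells neutrophils, from 244 on day 23 to 4193 on day 11, and none of the 1820 uninjured cells, a count that allows at most 0.165%. Markers that are not among the 9 genes were present in them: Hdc had a UMI in 93.2% of neutrophils, Csf3r in 79.4% and Cxcr2 in 65.3%. Of 5 eosinophil markers, Epx had no UMI, Siglecf was found in 3.07% of neutrophils, and Ccr3, Prg2 and Il5ra in 0.0557% to 0.438%. The summed level of 7 neutrophil markers was 5486 to 8333 counts per 1000000 counts (CPM) in neutrophils and 238 to 1146 in all other cells. That of the 5 eosinophil markers was 3.56 to 25.8 CPM in neutrophils and 3.78 to 25.6 in all other cells. The 8 monocyte or macrophage markers summed to 292 to 792 CPM in neutrophils, highest in Il10-/-. On days 7, 11 and 18 neutrophils stood above all other cells for these, at 426, 446 and 292 against 216, 259 and 199 CPM. In every batch A library with neutrophils they stood below. Ly6c2 had a UMI in 29.0% of neutrophils, Cd68 in 26.3%, Csf1r in 14.7% and the rest in at most 3.99%. Columnar epithelial markers summed to 236 to 457 CPM in neutrophils of 8 libraries, to 953 on day 11 and to 1256 on day 18. The median neutrophil held 1361 to 2079 UMIs in DSS libraries of batch A, 3084 to 6260.5 in those of batch C and 2888 in Il10-/-. Shares of cells with a UMI are therefore given after each neutrophil was thinned to 1000 UMIs, which left out 33 to 251 shallower neutrophils per library. Between libraries, 1238 cells (2.23%), 224 of them neutrophils, carried a barcode also found in another library.

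S100a8 and S100a9 dominated the RNA of the neutrophils. Together they made up 22.9%, 26.7%, 23.4%, 22.2% and 25.6% of neutrophil UMIs on days 6, 7, 9, 11 and 12, and 14.1%, 16.5%, 15.0% and 10.2% on days 16, 18, 19 and 23. In the Il10-/- library they made up 27.6%. All 4 libraries from day 16 on lay below all 5 earlier ones, and Il10-/- lay above every DSS library.

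S100a8, the smaller calprotectin subunit, stood at 143406, 136747, 149106, 101128 and 168904 CPM of neutrophils on days 6, 7, 9, 11 and 12. It stood at 82323, 68836, 88322 and 59335 CPM on days 16, 18, 19 and 23, so that no late library reached the lowest early one. Over the 9 DSS libraries it fell by 1.21 ± 0.19 (SE) log2 units per 10 days (edgeR, batch label in the model, adjusted p = 0.00673). S100a9, the larger subunit, stood at 85781, 130663, 84421, 120696 and 87087 CPM on days 6 to 12 and at 58162, 96610, 62084 and 42386 CPM on days 16 to 23. Its levels were higher in the 3 fresh libraries of batch C than in the frozen DSS libraries, and its early and late values overlapped only through day 18 of that batch. It fell by 0.90 ± 0.16 log2 units per 10 days by edgeR (adjusted p = 0.0130). The median slope of all 8394 genes tested was 0.02, and 4 of the 9 genes fell (S100a8, S100a9, Olfm4 and Padi4) against 2.03% of all genes tested. The call of S100a8 was lost without the day 23 library (adjusted p = 0.0635) and with no batch term (0.173). That of S100a9 was lost with no batch term (0.142), within the 6 DSS libraries of batch A (0.0521), and without day 9 (0.0539), day 18 (0.0546) or day 23 (0.0914).

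**Figure D1:**
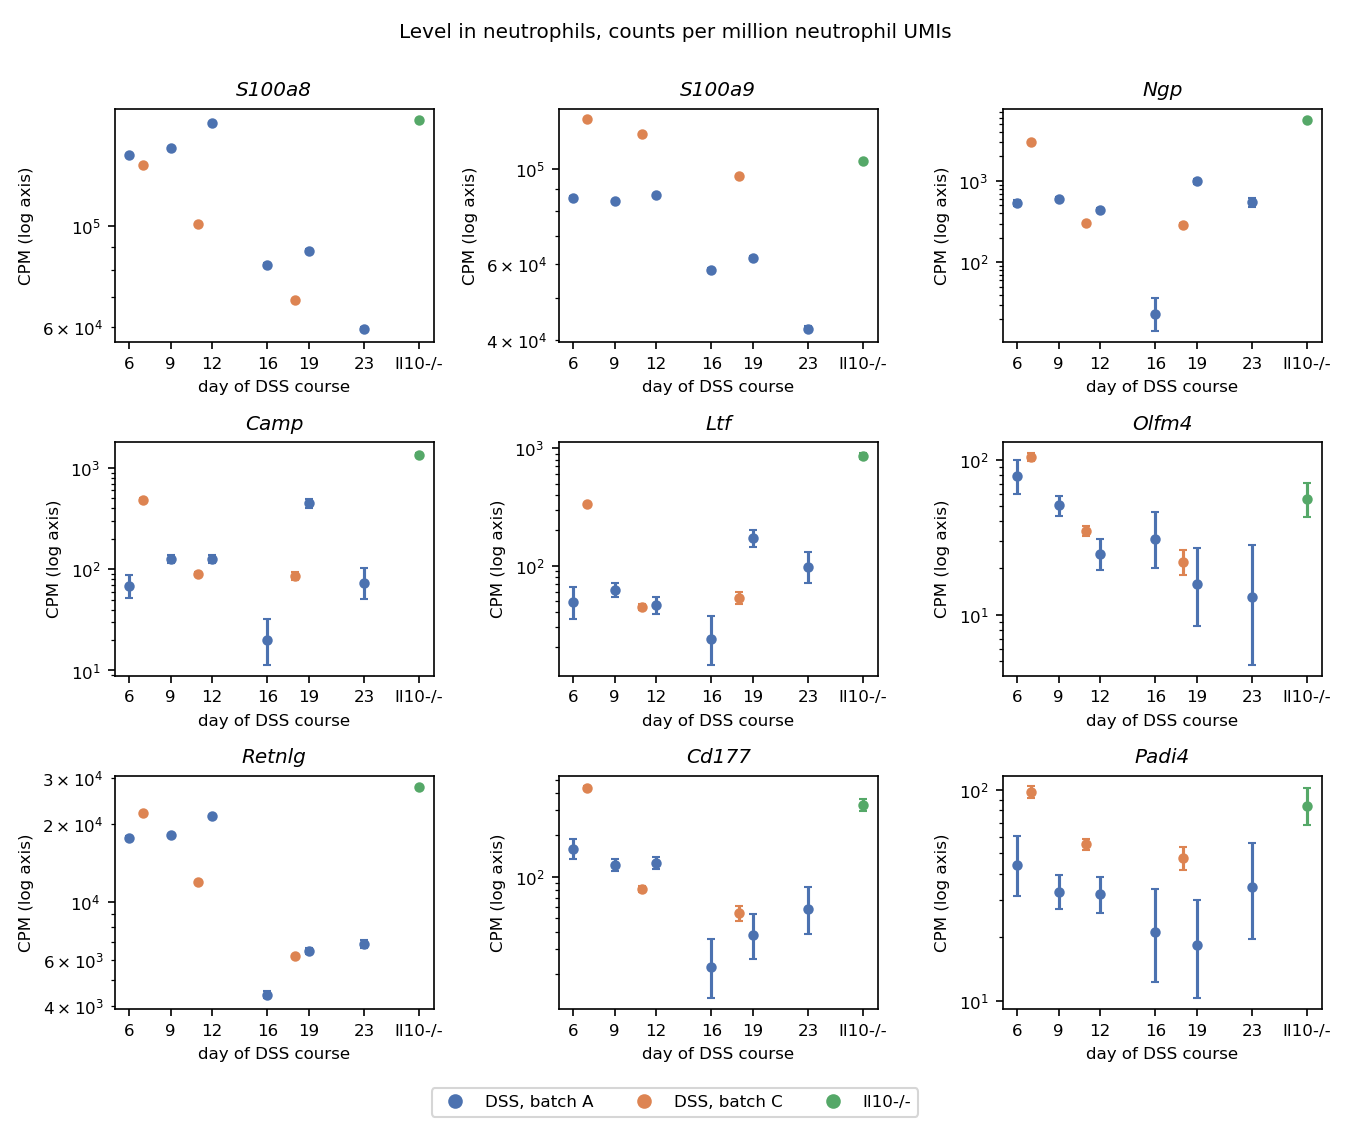
Level of each gene in neutrophils, in CPM of neutrophil UMIs on a log axis, against day of the DSS course, with the Il10-/- library at the right. Each point is 1 library and bars are exact Poisson 95% intervals; S100a8 stands at 101128 CPM or above to day 12 and at 88322 or below from day 16, while Ngp, Camp and Ltf are highest in Il10-/- and, among DSS libraries, on day 7.

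Nearly every neutrophil held both subunits. In thinned cells, 96.7% to 100% of neutrophils per library had a UMI of each, and the values that fell were the UMIs per cell. The median thinned neutrophil held 144, 123, 147, 99 and 167 UMIs of S100a8 on days 6 to 12 and 82, 61, 94 and 50 on days 16 to 23. It held 90, 123, 86, 122 and 89 UMIs of S100a9 on days 6 to 12 and 61, 92, 66 and 41 on days 16 to 23. These shares are not specific to neutrophils, because fibroblasts had an S100a8 UMI in 9.21% to 82.7% of cells thinned to the same depth. The source of the fibroblast counts was not tested.

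The balance of the subunits differed between batches. Per UMI of S100a8, neutrophils held 0.956, 1.19 and 1.40 UMIs of S100a9 on days 7, 11 and 18 of batch C, against 0.516 to 0.714 in the 6 DSS libraries of batch A and 0.608 in Il10-/-. The 3 batch C libraries lay above all others. At equal day, S100a8 was lower in batch C by a fitted -0.81 ± 0.22 log2 units (adjusted p = 0.0260), where 11.2% of 8394 genes were called for the batch label, and S100a9 had a coefficient of 0.18 ± 0.18 (adjusted p = 0.587). The S100a8 coefficient lost its call with no day term (-0.57, adjusted p = 0.542) and without day 9 (0.0666), day 11 (0.0831) or day 18 (0.161). Storage, number of mice, run and depth cannot be told apart in this label, and no other of the 9 genes was called for it.

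Retnlg encodes a resistin-like peptide made by myeloid cells and followed the calprotectin genes in pattern. Its level in neutrophils was 17641, 21961, 18015, 11984 and 21417 CPM on days 6 to 12 and 4407, 6204, 6511 and 6905 CPM on days 16 to 23. All late libraries lay below all early ones, and Il10-/- was above all at 27565 CPM. The median thinned neutrophil held 11, 15, 13, 8 and 16 Retnlg UMIs on days 6 to 12, 2 to 4 on days 16 to 23 and 18 in Il10-/-. Its slope of -1.61 ± 0.35 log2 units per 10 days did not pass (adjusted p = 0.0560). It passed without day 6 (-1.90, 0.0438), day 12 (-1.47, 0.0254) or day 16 (-1.58, 0.0226), and by DESeq2 (-1.61, adjusted p = 7.46e-05).

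Ngp, Camp and Ltf encode granule proteins made together late in marrow maturation: neutrophilic granule protein, a relative of the cathelicidins, the cathelicidin antimicrobial peptide itself and the iron-binding lactoferrin. Ngp stood at 539, 3023, 608, 301 and 439 CPM of neutrophils on days 6 to 12, at 23.6, 286, 992 and 545 CPM on days 16 to 23 and at 5606 CPM in Il10-/-. Camp stood at 68.6, 487, 126, 90.7 and 126 CPM on days 6 to 12, at 19.8, 85.6, 448 and 73.3 on days 16 to 23 and at 1350 in Il10-/-. Ltf stood at 48.9, 332, 61.8, 44.2 and 45.7 CPM on days 6 to 12, at 23.6, 52.6, 171 and 97.0 on days 16 to 23 and at 864 in Il10-/-. All 3 were highest in Il10-/-, next on day 7 and then on day 19, and lowest on day 16. None had a day slope that passed: Ngp had -0.89 ± 1.03, Camp -0.38 ± 1.07 and Ltf -0.35 ± 0.86 log2 units per 10 days, with adjusted p of 0.696, 0.892 and 0.877.

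The share of cells with a UMI was counted next. A UMI of Ngp was found in 15.4%, 31.5%, 14.7%, 8.40% and 13.1% of thinned neutrophils on days 6 to 12, and in 0.719%, 3.13%, 2.06% and 2.37% on days 16 to 23. In Il10-/- the share was 40.3% (exact 95% interval 34.6% to 46.1%). All 4 late libraries lay below the 5 early ones, and the share went with day with Spearman's rho = -0.850 (exact permutation p = 0.00607, adjusted over 9 genes 0.0273) and Pearson's r = -0.804 (exact p = 0.00629, adjusted 0.0283), also -0.804 without the 2 days farthest from the median day (exact p = 0.0224). Within the 6 DSS libraries of batch A, rho was -0.771 and r -0.886, with exact p of 0.103 and 0.0431 (adjusted 0.231 and 0.0969). The adjusted p of rho was 0.07 in cells that were not thinned, 0.0765 in cells thinned to 500 UMIs, and 0.0653, 0.0628, 0.126, 0.098 and 0.098 without days 6, 7, 9, 11 and 12. Fibroblasts had an Ngp UMI in 1.40% of thinned cells on day 7 and in at most 0.524% in the other injured libraries, so the neutrophil share on day 16 lies near that of cells that should lack the gene.

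Camp and Ltf were rarer. Camp had a UMI in 6.14% of thinned neutrophils on day 7 and in 8.87% in Il10-/-, and in 0.240% to 1.56% in the other 8 libraries. Ltf had a UMI in 6.62% on day 7, in 8.87% in Il10-/- and in 0.521% to 2.08% in the others. Neither share passed against day (rho = -0.550 for Camp and -0.333 for Ltf, adjusted p = 0.166 and 0.385 by exact permutation).

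**Figure D2:**
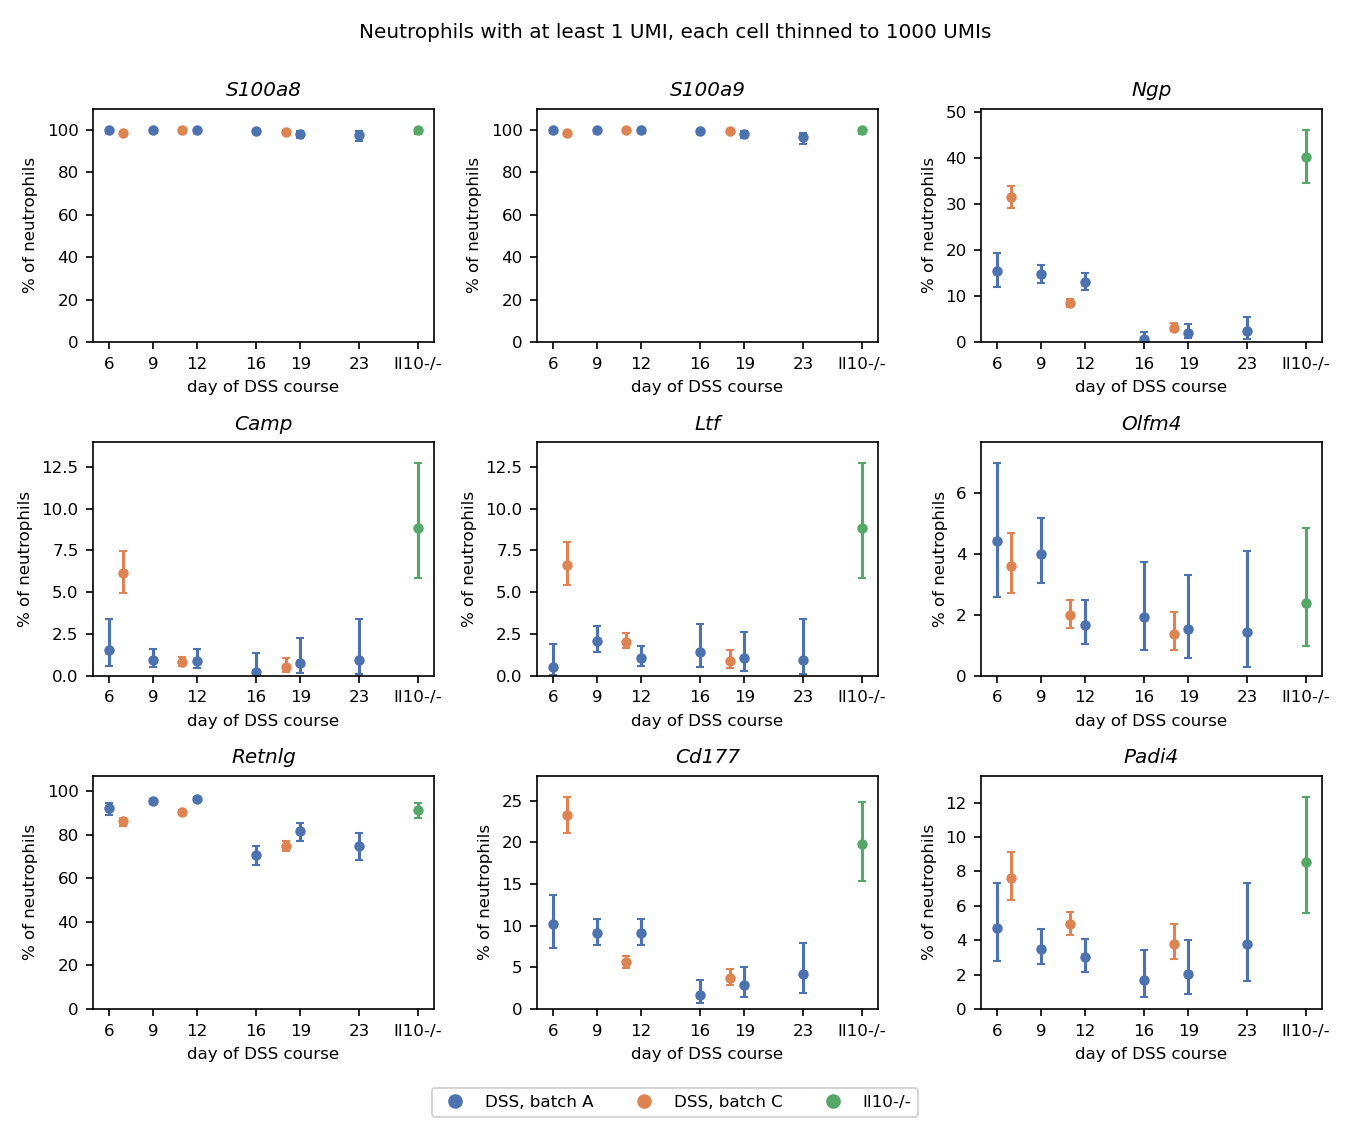
Percent of neutrophils with at least 1 UMI of each gene after every cell was thinned to 1000 UMIs, against day of the DSS course, with Il10-/- at the right. Each point is 1 library and bars are exact binomial 95% intervals; Ngp runs from 31.5% on day 7 to 0.719% on day 16 and 40.3% in Il10-/-, while S100a8 and S100a9 stay between 96.7% and 100%.

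The level and the share of Ngp parted on day 19, where 2.06% of neutrophils held a UMI and the level was 992 CPM. Few cells held most of the counts. The top 1% of cells held 98.8% of the Ngp UMIs of day 19 and 22.5% on day 7. On day 16 it held 100%, a fixed value, since only 6 cells held Ngp and the top 1% was 6 cells. For Camp, the top 1% held 60.2% to 100% of UMIs per library. The 100% of days 16, 18, 19 and 23 was fixed in the same way, because no more cells held Camp than the top 1% counted. For S100a8 the top 1% held 4.07% to 10.9% and for Retnlg 5.83% to 18.5%, but this share is high for any gene found in few cells. The richest cells held 758 Ngp and 661 Camp UMIs, both on day 11.

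Some of the cells with Ngp, Camp or Ltf held all 3. At least 1 UMI of each was present in 223 of 12565 neutrophils (1.77%), a set defined after the values were seen and therefore given as a description. Ngp had a UMI in 2507 neutrophils, Camp in 494 and Ltf in 608, so most cells holding each were outside the set. The 223 cells, picked for these genes, held 69.6% of all Ngp, 95.3% of all Camp and 89.7% of all Ltf UMIs of neutrophils. By library they held 35.6% to 98.3% of Ngp, 72.9% to 100% of Camp and 36.8% to 96.6% of Ltf UMIs. They made up 9.24% of neutrophils on day 7 (139 cells, 7.83% to 10.8%) and 6.76% in Il10-/- (24 cells, 4.38% to 9.89%), against 0.187% to 0.825% in the other 8 libraries, which had 1 to 22 such cells each. After thinning the shares were 3.82% on day 7 and 6.83% in Il10-/-, and at most 0.521% elsewhere. On day 19, 3 cells held 98.3% of the Ngp UMIs, and without them Ngp stood at 17.4 CPM in place of 992. The set was also deeper, with a median of 11046 UMIs per cell against 3071 in the other neutrophils, and the part of depth and of doublets in it was not tested.

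Within day 7, the 139 cells were compared with the other 1365 neutrophils of that library, again with no test. S100a8 stood at 197653 CPM in them and at 123114 in the others, and Cd177 at 973 and 315. Padi4 stood at 149 and 86.7 CPM and Olfm4 at 278 and 65.6. Chil3, a chitinase-like lectin of maturing granulocytes, stood at 1420 and 120 CPM, and Lcn2, the siderophore-binding lipocalin of the specific granule, at 14209 and 6304. Of genes of the mature or stimulated cell, some were lower in them: the G-CSF receptor gene Csf3r stood at 263 against 815 CPM, the chemokine gene Cxcl2 at 4730 against 16168 and Ccl4 at 357 against 2981. Ly6g, a surface marker of mature neutrophils, was not, at 589 against 487 CPM. In Il10-/-, the 24 cells had Cd177 at 716 against 252 CPM in the other 331, Chil3 at 788 against 35.7, Csf3r at 92.7 against 494 and Cxcl2 at 12351 against 24051, while Ccl4 was not lower at 1349 against 1287, and Retnlg stood at 27649 and 27548.

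Leaving out all 223 cells, a choice made after seeing the data, kept the 4 falls. S100a8 then fell by 1.21 (adjusted p = 0.00728), S100a9 by 0.90 (0.0150), Olfm4 by 1.55 (0.00351) and Padi4 by 0.85 (0.0442) log2 units per 10 days, and Cd177 fell by 2.35 (0.0331). Camp, on which the cells left out were chosen, was then called as well (-3.28, adjusted p = 0.00351).

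Olfm4, a secreted glycoprotein that marks a subset of neutrophils in blood, was the gene whose fall was called under every alternative run. It stood at 77.9, 104, 50.6, 34.8 and 24.6 CPM of neutrophils on days 6 to 12 and at 31.0, 21.8, 15.8 and 12.9 CPM on days 16 to 23. Days 6, 7 and 9 lay above all later libraries, and the day 23 value rests on 6 UMIs (4.74 to 28.1 CPM). It fell by 2.01 ± 0.23 log2 units per 10 days by edgeR (adjusted p = 0.00190), and leaving out each library in turn gave adjusted p of 0.00109 to 0.0129. The share of thinned neutrophils with a UMI was 4.43%, 3.62%, 4.02%, 1.99% and 1.65% on days 6 to 12 and 1.92%, 1.36%, 1.54% and 1.42% on days 16 to 23. The share fell with day too (rho = -0.917, exact permutation p = 0.00131, adjusted 0.0118, and r = -0.842, exact p = 0.00438, adjusted 0.0283, with r = -0.867 without the 2 farthest days). Within the 6 DSS libraries of batch A, rho was -0.943 and r -0.858 (exact p = 0.0167 and 0.0194, adjusted 0.150 and 0.0583). Without day 11 the adjusted p of rho was 0.0652. In fibroblasts the share was 0 in 9 of the 10 injured libraries and 0.166% on day 11.

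In Il10-/-, Olfm4 stood at 55.4 CPM and 2.39% of cells, and its level lay inside the DSS range, as did those of S100a9, Cd177 and Padi4, whereas S100a8, Retnlg, Ngp, Camp and Ltf lay above every DSS library. Il10-/- belongs to batch A, and the range is wider through batch C. Against the 6 DSS libraries of batch A, S100a9 (104498 CPM against at most 87087) lay above all. So did Cd177 (329 against at most 158) and Padi4 (84.3 against at most 44.2). Olfm4 did not (at most 77.9 CPM in those 6). Cells with Ngp, Camp and Ltf held 40.3% of the Olfm4 UMIs on day 6, 48.7% on day 7 and 5.41% on day 9. They held 0 on all later days and 0 of the 65 Olfm4 UMIs of Il10-/- neutrophils. The day 6 share came from 4 such cells, and the richest neutrophil of that day held 27 of its 67 Olfm4 UMIs. Across cells its level had a median correlation of at most 0.02 with any of the other 8 genes. In co-detection among thinned cells, its median log2 odds ratio was 1.78 with Camp, 1.26 with Ltf and 1.02 with Cd177, from 8, 11 and 37 cells with both. A small constant was added to each count of cells, so a rare pair can give a value above 0 with no cell holding both. The median share of cells with both was 0.0126% for Camp, 0% for Ltf and 0.0340% for Cd177. These odds ratios therefore cannot show whether Olfm4 was found with those genes.

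Cd177 encodes a surface glycoprotein of neutrophils that binds the endothelial protein PECAM1. It stood at 158, 435, 121, 81.8 and 126 CPM of neutrophils on days 6 to 12, at 22.3, 54.2, 37.8 and 58.2 CPM on days 16 to 23 and at 329 CPM in Il10-/-. The thinned share was 10.2%, 23.2%, 9.12%, 5.60% and 9.17% on days 6 to 12, 1.68%, 3.74%, 2.83% and 4.27% on days 16 to 23 and 19.8% in Il10-/-. All late values lay below all early ones on both measures, yet the slope of -2.03 ± 0.52 log2 units per 10 days did not pass (adjusted p = 0.0939), and neither did the share (rho = -0.783, exact permutation p = 0.0172, adjusted 0.0517). DESeq2 called the slope (-1.87, adjusted p = 0.00109).

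Padi4 encodes the peptidylarginine deiminase that citrullinates histones when neutrophils release their chromatin. It stood at 44.2, 98.1, 32.8, 55.2 and 31.9 CPM of neutrophils on days 6 to 12, at 21.1, 47.3, 18.3 and 34.5 CPM on days 16 to 23 and at 84.3 CPM in Il10-/-. Early and late values overlapped, and each batch C library stood above the batch A libraries next to it in day. It fell by 0.93 ± 0.21 log2 units per 10 days by edgeR (adjusted p = 0.0299). The call was lost with no batch term (0.106), within the DSS libraries of batch A (-0.69, 0.145), and without day 7 (0.0802), day 9 (0.0743), day 18 (0.123) or day 19 (0.0831). In thinned cells 1.68% to 7.65% of DSS neutrophils and 8.53% of Il10-/- neutrophils held a UMI, against at most 0.166% of fibroblasts.

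Within neutrophils some of the 9 genes were found in the same cells more than others. The closest pair in level was S100a8 and S100a9, with a median Pearson r of 0.90 across cells over the 10 libraries (0.83 to 0.92), and Retnlg went with them at 0.62 and 0.56. Ngp and Camp had a median r of 0.55, Camp and Ltf 0.54, Ngp and Cd177 0.39 and Ngp and Ltf 0.38. Between these groups the values were lower and uneven: Ltf had 0.01 with both calprotectin genes and 0.03 with Retnlg, while Ngp had 0.23 with S100a8 and 0.28 with Retnlg, and Cd177 had 0.28 with Retnlg. Cells of a library share its depth and free RNA, so these values are a description. In co-detection among thinned cells, the median log2 odds ratio was 7.19 for Camp with Ltf, 6.09 for Ngp with Camp and 4.46 for Ngp with Ltf, each above 0 in all 10 libraries. Cd177 was found with Camp at 3.28, with Ngp at 2.86 and with Ltf at 2.55, also above 0 in all 10. The same small constant was added to the counts of cells here. Where few cells held a gene, it can give a value above 0 with no cell holding both. The count of libraries above 0 is therefore no support for these pairs. Over all libraries, 110, 165 and 158 thinned cells held both genes of the first 3 pairs. For Cd177 with Camp, Ngp and Ltf these were 101, 432 and 96 cells. With Retnlg, the median log2 odds ratio was 2.11 for Ngp (above 0 in 9 of 10), 1.95 for Cd177 (10 of 10), 0.38 for Camp (7 of 10) and -1.38 for Ltf (2 of 10).

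**Figure D3:**
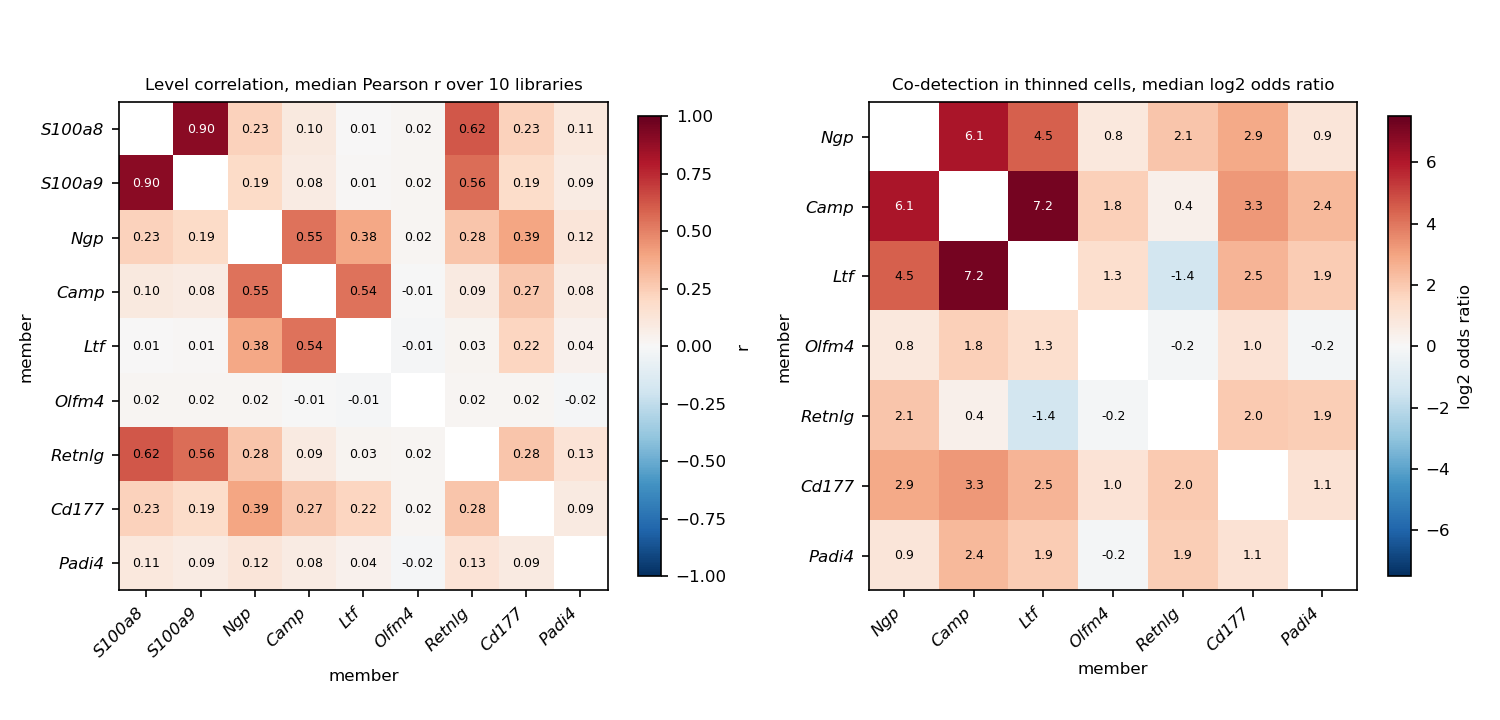
Left, median over 10 libraries of the within-library Pearson correlation of log levels across neutrophils for each pair of the 9 genes. Right, median log2 odds ratio of finding both genes of a pair in a thinned neutrophil, for 7 genes not found in nearly every cell. A small constant was added to each count of cells. S100a8, S100a9 and Retnlg form a block at 0.56 to 0.90 on the left, and Ngp, Camp and Ltf stand at 0.38 to 0.55. Olfm4 stands near 0 with all there, while its 1.78 with Camp and 1.26 with Ltf on the right rest on 8 and 11 cells.

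Over all 7516 genes seen in at least 1% of neutrophils, the genes most like each of the 9 in mean correlation over the 10 libraries were mostly others of the 9 or further granule genes. For S100a8 they were S100a9 (0.893), Wfdc21 (0.615) and Retnlg (0.612), and Wfdc21, a whey acidic protein family member, was also among the 3 closest to S100a9 and to Retnlg. For Camp they were Ltf (0.604), Ngp (0.537) and Chil3 (0.443), and for Ltf Camp, Ngp (0.413) and Chil3 (0.374). For Cd177 they were Ngp (0.442), the collagenase gene Mmp8 (0.318) and Ifitm6 (0.312). For Padi4 the values were low (Retnlg 0.152, Mmp8 0.143, Ifitm6 0.140), and for Olfm4 none passed 0.0698, that of Gpr27.

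The rest of the granule programme in neutrophils was counted from lists, to be read against the 2.03% of all genes tested that fell. Of 10 genes of gelatinase granules and secretory vesicles, 6 fell with day, led by the protease gene Mmp25 (-1.72) and the formyl peptide receptor gene Fpr1 (-1.11), with a list median of -0.82 log2 units per 10 days against 0.02 over all genes. Of 7 other specific granule genes, 2 fell, Lcn2 (-1.80, adjusted p = 0.0124) and Wfdc21 (-1.68, adjusted p = 0.00948), with a median of -1.68. Of 8 other S100 genes, S100a6 alone fell (-1.08), and of 4 tested calprotectin receptor genes, Cd33 alone (-0.51, adjusted p = 0.0497). By edgeR, none of 9 genes of mature neutrophils passed (smallest p for Ly6g, -1.50, and G0s2, -0.42), though 3 had an unadjusted p under 0.05 and DESeq2 called 1. None of 12 genes of tissue-activated neutrophils passed by edgeR (Nos2, -2.32, and Ccl4, -1.28), with 1 at an unadjusted p under 0.05 and 0 called by DESeq2. None of 5 tested granulocyte transcription factor genes passed by edgeR (Cebpa, 1.06, and Cebpd, 0.41), with 1 at an unadjusted p under 0.05 and 0 by DESeq2. The 2 tested azurophil genes of 6 listed (Prtn3, -0.43, and Prss57, -0.34) and the 2 tested resistin family genes of 3 listed (Retnlb, -0.55, and Retn, 0.25) did not pass by either tool or at an unadjusted p under 0.05. Elane and Mpo, the defining azurophil genes, had 1 and 8 UMIs in all neutrophils.

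In the uninjured library, which held no cell named a neutrophil, S100a8 had 17 UMIs in 13 of 1820 cells (1.88 CPM, exact Poisson 1.10 to 3.01) and S100a9 17 UMIs in 11. Retnlg had 3 UMIs and Ltf 2, and Ngp, Camp, Olfm4 and Padi4 had none, which allows up to 0.165% of cells with a UMI. Cd177 was the exception, with 68 UMIs in 33 cells (7.53 CPM, 5.85 to 9.55).

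In injured libraries S100a8 was counted in every main cell class. Its level over 10 libraries (lowest, median and highest) was 59335, 118937 and 171778 CPM in neutrophils, 177, 1677 and 5261 in columnar epithelial cells, 221, 1451 and 5141 in monocytes or macrophages and 143, 1335 and 13798 in blood endothelial cells. It was 115, 1080 and 6991 CPM in T cells, 88.8, 742 and 2276 in fibroblasts and 151, 499 and 3051 in B cells. Neutrophils stood apart, and all neighbours below them in this order overlapped. The median level of a class other than neutrophils was 0.465% to 1.37% of that of the neutrophils of the same library in these classes.

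The level outside myeloid cells was set beside the neutrophil share of each library. S100a8 in non-myeloid cells stood at 1.94 CPM in the uninjured library, at 1080, 4045, 3297, 4637 and 2383 on days 6 to 12, at 393, 841, 409 and 139 on days 16 to 23 and at 1157 in Il10-/-. The uninjured library, with no neutrophil, and day 23, with a share of 7.43%, had the lowest levels, but Il10-/-, with a lower share of 6.09%, did not. Over 11 libraries it went with the neutrophil share with r = 0.808 and rho = 0.782 (permutation p = 0.00377 and 0.00684, adjusted over 9 genes 0.0339 and 0.0205), with r = 0.712 without the 2 libraries farthest from the median share. S100a9 gave r = 0.745 and rho = 0.855 (permutation p = 0.00915 and 0.00144, adjusted 0.0412 and 0.0130), and r = 0.602 (p = 0.0979) without those 2. Retnlg gave r = 0.714 and rho = 0.800 (permutation p = 0.0139 and 0.00477, adjusted 0.0416 and 0.0205), and r = 0.605 (p = 0.0958) without them. The Pearson relation of S100a9 and of Retnlg was therefore weaker and did not pass without those libraries. Within the 8 libraries of batch A, r was 0.876, 0.908 and 0.910 (exact permutation, adjusted p = 0.0222 for each) and rho 0.714, 0.810 and 0.810 (adjusted 0.173, 0.0980 and 0.0980). Batch C has 3 DSS libraries, too few for a value. Without the uninjured library the adjusted p of rho was 0.0803 for S100a8, 0.0622 for S100a9 and 0.0803 for Retnlg, and without day 11 it was 0.0812 for S100a8. The part of free RNA from neutrophils in these levels was not tested.

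**Figure D4:**
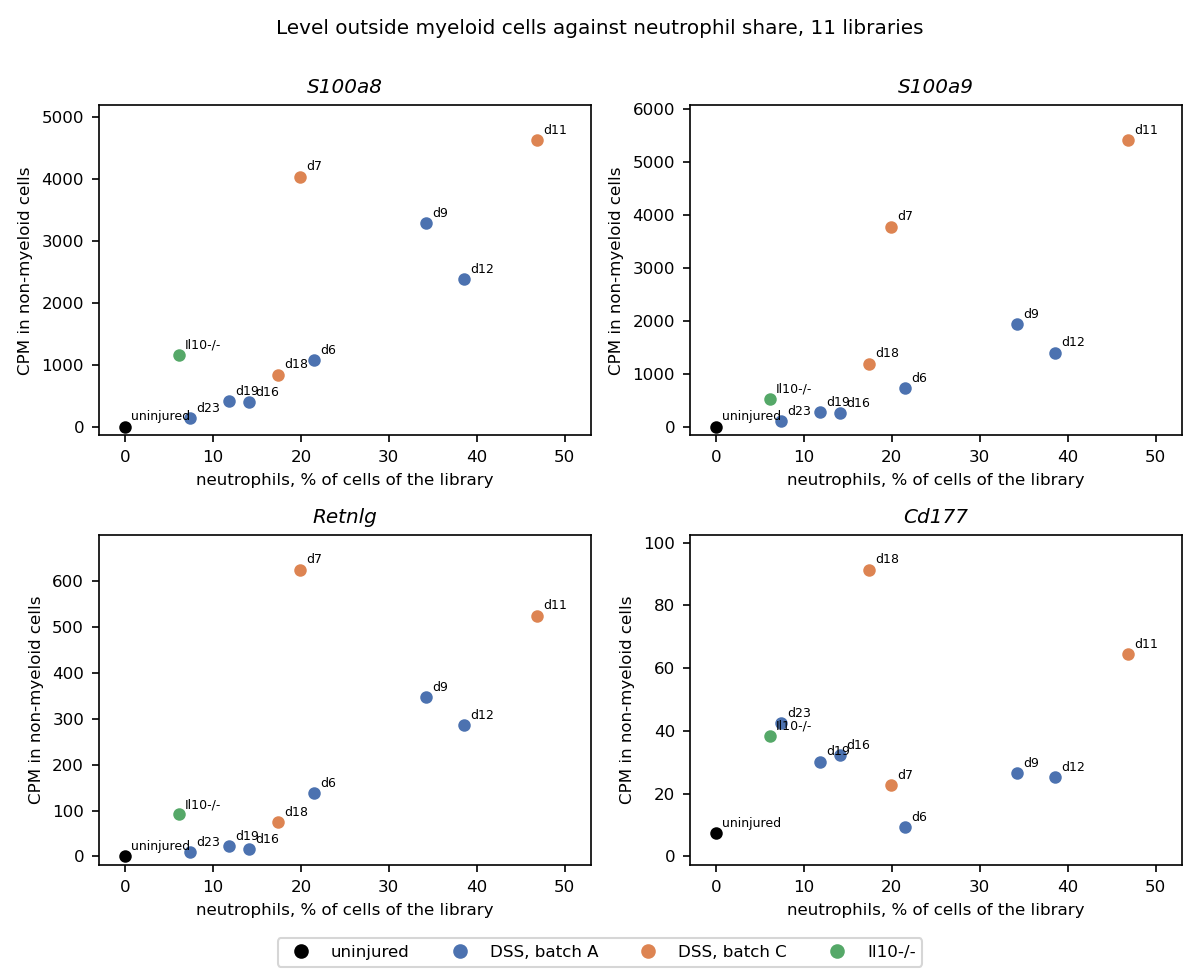
Level in cells that are not neutrophils, monocytes, macrophages or dendritic cells, in CPM, against the neutrophil share of the library in percent, for S100a8, S100a9, Retnlg and Cd177. Each point is 1 of 11 libraries; the first 3 genes are higher where neutrophils are more common (Spearman's rho 0.782, 0.855 and 0.800), and Cd177 is not (0.0455).

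The ratio of the calprotectin genes was compared between classes. In 95 class and library pairs outside neutrophils, the UMIs of S100a9 per UMI of S100a8 were 0.472 to 1.52 times the neutrophil ratio of the same library, with a median of 1.04, and 79 of the 95 lay within 0.75 to 1.25 times. The lowest was that of Il10-/- columnar cells, at 0.287 (exact 0.277 to 0.298) against 0.608 in neutrophils. Within that class the Car4/Ly6g colonocytes, as the authors name them, had 9671 UMIs of S100a8 and 2271 of S100a9 in 227 cells, a ratio of 0.235 (0.224 to 0.246). Car4 colonocytes (0.325, 0.284 to 0.372) and Crypt-2 cells (0.410, 0.379 to 0.442) of the same library also lay below the neutrophil ratio. The intervals of Crypt-1 cells (0.679, 0.515 to 0.893) and goblet cells (0.739, 0.567 to 0.962) included it, and fibroblasts named Pi16/Pcolce2 at 0.791 (0.732 to 0.853) lay above it. The Car4/Ly6g cells also had the highest S100a8 level relative to other columnar cells in Il10-/-, at 5200 CPM against 918, a ratio of 5.66, where DSS libraries gave 1.10 to 4.71. On day 7, monocytes or macrophages had a ratio of 0.594 against 0.956 in neutrophils.

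Cells of other classes at neutrophil levels of both calprotectin genes, above the 10th percentile of the neutrophils of their library, were most frequent among enteroendocrine cells, at 15 of 84 (17.9%), and numbered 331 of 11509 columnar cells (2.88%), 62 of 1277 blood endothelial cells (4.86%) and 77 of 6954 fibroblasts (1.11%). The part of doublets in these counts was not tested. In the Il10-/- library, the 47 endothelial cells with no subtype name held Ngp at 2644 CPM and Ltf at 698 CPM, beside S100a8 at 14755 CPM. Ngp and Ltf were each counted in a single cell of the 47 (2.13%), so their levels are not those of the type.

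Day trends of the 9 genes in other classes followed in part. In monocytes or macrophages, where 7.13% of genes fell, 2 of the 5 that could be tested fell: Ngp by 2.88 ± 0.62 (adjusted p = 0.0202) and Cd177 by 0.94 ± 0.14 log2 units per 10 days (adjusted p = 0.00158). Ngp was rare in this class, with a median over injured libraries of 6.43 CPM and 0.243% of thinned cells. Fibroblasts held 3.77 CPM and 0.262%, and the part of free RNA in the fall of Ngp was not tested. Cd177 stood in monocytes or macrophages at 29.2, 34.3, 26.5, 26.5 and 17.3 CPM on days 6 to 12, at 19.3, 17.6, 11.8 and 10.2 on days 16 to 23 and at 8.63 in Il10-/-. It was called under every alternative run, while the call of Ngp was lost without day 23 (0.0698) and with no filter on low counts (0.0577). S100a8 (-2.58, adjusted p = 0.104), S100a9 (-2.26, 0.142) and Retnlg (-2.80, 0.135) did not pass by edgeR in this class and were called by DESeq2. In columnar cells, where 0.229% of genes were called, none of 6 tested passed, with S100a8 at -2.52 ± 0.55 (adjusted p = 0.0964), S100a9 at -2.30 (0.108), Ngp at -5.20 (0.0618), Ltf at -1.94 (0.401), Retnlg at -3.38 (0.0964) and Cd177 at 1.17 (0.108). Their unadjusted p was under 0.05 for 5 of the 6, all but Ltf. DESeq2 called S100a8, S100a9, Ngp, Retnlg and Cd177 there, and without day 6 edgeR called S100a8 (-3.03, adjusted p = 0.0173), S100a9 (-2.77, 0.0375), Ngp (-5.96, 0.00625) and Retnlg (-3.89, 0.0457). In fibroblasts, where edgeR called 4.65% of genes, none of 4 passed, and S100a8 (-2.49), S100a9 (-2.10) and Retnlg (-2.92) had an unadjusted p under 0.05 and were called by DESeq2. In blood endothelial cells, where edgeR called 1.30%, none of 3 passed, and S100a8 (-3.38), S100a9 (-2.95) and Retnlg (-4.36) had an unadjusted p under 0.05 and were called by DESeq2.

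Cd177 reached levels in the epithelium like those in neutrophils. Its columnar level was 9.25 CPM in the uninjured library, 16.8, 24.7, 52.4, 87.3 and 43.7 CPM on days 6 to 12, 81.7, 126, 72.6 and 85.2 on days 16 to 23 and 113 in Il10-/-. It was higher than in the neutrophils of the same library in 5 of 10 libraries: days 11, 16, 18, 19 and 23. Among DSS libraries the highest columnar values were those of days 18 and 11, and the lowest those of days 6 and 7. The columnar slope of 1.17 ± 0.27 log2 units per 10 days did not pass (adjusted p = 0.108) except by DESeq2 (1.18, adjusted p = 0.00156). The share of thinned columnar cells with a UMI was 0.628% without injury, 0.356% and 6.24% on the first and the last DSS day and 6.48% in Il10-/-. Fibroblasts, in contrast, held 0.611 to 7.77 CPM, with a median of 2.16.

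Cd177 was concentrated in crypt and secretory cells. In Crypt-1 cells, as the authors name them, it stood at 77.6 to 306 CPM over the 9 injured libraries with at least 20 such cells (median 163). A UMI was held by 45.5% to 85.7% of these cells, which were not thinned. Their median depth over all libraries was 24095 UMIs, so this share cannot be set beside those of thinned cells. Goblet cells held 36.5 to 322 CPM (median 153, 7 libraries), Crypt-2 cells 14.7 to 156 (median 54.1, 10 libraries) and Car4 surface colonocytes 0 to 21.4 (median 3.76, 10 libraries). Enteroendocrine cells held 410 CPM on day 7 and 395 on day 18, in 20 and 22 cells, beside S100a8 at 21807 and 8342 CPM. Within Crypt-1, Crypt-2 and goblet cells as 1 group the level was 18.8 CPM without injury, 30.0, 47.4, 75.3, 103 and 74.0 CPM on days 6 to 12, 141, 172, 119 and 128 CPM on days 16 to 23 and 186 in Il10-/-. These types made up 35.0% of columnar cells in the uninjured library, 34.2%, 20.3%, 48.4%, 57.0% and 40.2% on days 6 to 12, 38.4%, 43.1%, 38.0% and 41.5% on days 16 to 23 and 32.4% in Il10-/-. Over the 28 cell types, Ceacam10, an adhesion molecule gene, was closest to Cd177 (r = 0.925).

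**Figure D5:**
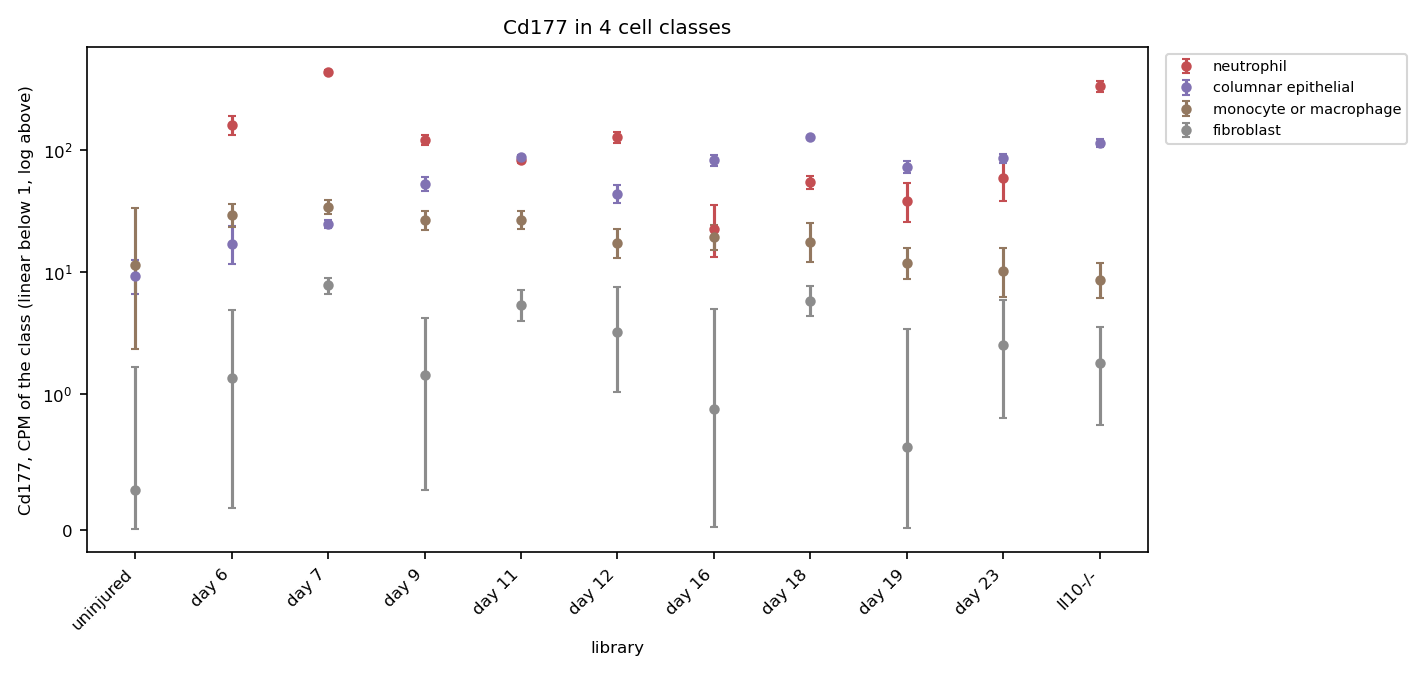
Level of Cd177 in neutrophils, columnar epithelial cells, monocytes or macrophages and fibroblasts of each library, in CPM of the class (linear below 1, log above), with exact Poisson 95% intervals. Neutrophils run from 435 CPM on day 7 to 22.3 on day 16, and columnar cells from 9.25 in the uninjured library to 126 on day 18, above neutrophils on days 11, 16, 18, 19 and 23.

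Ltf was also counted in the epithelium. In Car4/Ly6g colonocytes it stood at 72.9 CPM on day 7 (1021 UMIs, 31.6% of 850 cells with a UMI), 44.9 on day 9 and 58.1 in Il10-/- (108 UMIs, 18.5% of 227 cells), and at 2.32 to 13.95 CPM in the other DSS libraries. The rest of the columnar cells held 29.6 CPM on day 7, 1.97 on day 9 and 8.14 in Il10-/-. Car4/Ly6g cells were above the other columnar cells in 9 of 10 injured libraries, all but day 12. The ratio ran from 0.653 to 22.8 in the 8 libraries with more than 3 Ltf UMIs in the other columnar cells. Some of these counts were small: 2 UMIs against 8 on day 12 (the lowest ratio), 23 against 7 on day 9 (the highest) and 4 against 2 on day 6. S100a8 was higher in Car4/Ly6g cells too, in all 10 injured libraries, by 1.10 to 5.66 times. In uninjured Car4/Ly6g cells no Ltf UMI was counted in 135 cells. Per UMI of Ngp these cells held 1.27 UMIs of Ltf on day 7, 1.25 on day 11 and 3.48 in Il10-/-, against 0.110, 0.147 and 0.154 in the neutrophils of those libraries. Their median depth on day 7 was 12676 UMIs against 4408 in the other columnar cells, which bears on the share of cells. The part of depth, free RNA or doublets in the CPM was not tested. The set of cells was chosen after their values were seen, so no test is given.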

How the data were processed

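The matrix deposited by the authors gave UMI counts for each gene in each cell, made with Cell Ranger 3.0.0 and the mm10 build, per the submitters' processing notes. The cell table of the authors gave each cell's library, type, barcode, batch letter, storage and number of mice. How the authors filtered cells and whether doublets were removed is not given in the sources used here. No doublet caller was run. The 11 libraries with a sample here were used (55603 of 68224 cells), and 3 libraries that matched no sample were not used. Placeholder rows, 597 of 30406 and 0.517% of counts, were left out.

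CPM was the sum of a gene's counts over the cells of a class per 1000000 counts of that class, with exact Poisson 95% intervals. Shares had exact Clopper-Pearson 95% intervals, and cells were thinned to 1000 UMIs (alternative 500). A count of 0 allows up to 3 counts of the total. PCR copies are removed by UMIs, and intervals cover counting error only. Day trends were fitted with edgeR 4.0.16 (quasi-likelihood, robust, TMM, filterByExpr) on pseudobulk counts of the 9 DSS libraries, for classes that reached 20 cells in 7 or more libraries. Day per 10 days and batch label were terms, p-values were Benjamini-Hochberg adjusted over all genes tested, and genes under 0.05 were called. DESeq2 1.42.0 was an alternative, as were RLE scaling, no filter, no batch term, the batch A libraries alone, and leaving out each library. The p-values measure the spread between pooled libraries around the trend. Relations across libraries used two-sided permutation tests, exact below 10 libraries and with 100000 resamples otherwise, adjusted over the 9 genes.

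The fit was tested on simulated neutrophil sums with 8320 genes tested: 38% of 100 genes with a slope of 1 and 99% of 100 with a slope of 2 log2 units per 10 days were recovered, and 4.20% of calls were false. The named genes are the 9 genes, the 3 most like each, and of each list those called, limited to the 2 with the largest slope, or the 2 with the smallest p where none was called. Of a list of peptidylarginine deiminases, no gene besides Padi4 was tested. The 9 genes and the lists were chosen with earlier results of these data known. Python 3.11.15, numpy 2.4.6, scipy 1.17.1, pandas 2.3.3, matplotlib 3.10.9 and R 4.3.3 were used.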

Additional observations from a re-analysis of the deposited data

How the results depend on the processing

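No paired analysis was possible because each group is 1 library and no replicate numbers are shared. With 1 library per group, the uninjured and Il10-/- libraries could not be tested against others. Of the neutrophil slopes, Olfm4 was called under all 15 alternatives run. In place of 219 called genes, neutrophils gave 770 with no filter, 443 by DESeq2, 21 with no batch term and 134 in the batch A libraries, and 35 to 286 with each library left out, with 45, 35, 82 and 49 without days 9, 18, 19 and 23. The batch label called 942 genes, 570 with no day term and 372 to 1035 with a library left out (617, 579 and 372 without days 9, 11 and 18). Monocytes or macrophages gave 1248, and 152 with no batch term (447 to 1368 with a library left out, with 815, 760 and 447 without days 6, 18 and 23). Columnar cells gave 25, and 120 with no filter, 353 by DESeq2, 8 with no batch term and 109 in the batch A libraries (1 to 179 with a library left out, over 1.5 times from 25 for each of the 9, with 179 without day 7 and 1 without day 18). Fibroblasts gave 478, and 762 by DESeq2 and 89 with no batch term (167 to 636 with a library left out, with 174, 250, 167 and 291 without days 6, 9, 18 and 19). Blood endothelial cells gave 46, and 411, 107, 17 and 86 under the same 4 settings as columnar cells (39 to 78 with a library left out, with 76 and 78 without days 6 and 7). The cause of these shifts was not tested. The day slope of Camp turned to 0.54 and that of Ltf to 0.58 in the batch A libraries, to 0.35 and 0.44 without day 7 and to 0.23 and 0.26 without day 18, with lowest values of -1.47 and -0.84 without day 19. With no filter, Ngp (-0.97, adjusted p = 2.61e-05), Retnlg and Cd177 were called in neutrophils. By rho, shares went with day for 2 genes, for 1 in cells not thinned, for 0 in the batch A libraries, and for 0 to 4 with a library left out (0 without day 11, 1 without days 7, 9 or 12 and 4 without day 23). By rho, levels outside myeloid cells went with the neutrophil share for 3 genes, for 0 in the batch A libraries (where r passed for all 3) and for 0 to 5 with a library left out (0 without the uninjured and 5 without the Il10-/- library). The rho of Cd177 turned from 0.0455 to -0.00909 with the neutrophil share of UMIs, -0.214 in the batch A libraries, -0.273 without the uninjured library and -0.212 without day 11, and was at most 0.115 with a library left out. Without thinning, the median log2 odds ratio was 2.92 for Ngp with Ltf and 4.93 for Camp with Ltf, and 35.5% and 21.7% of Il10-/- neutrophils held Cd177 and Padi4.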
